A study of Mus musculus with 18 samples.

Results

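The 1844 accessible regions described here were those of the wild-type haematopoietic stem cell (HSC) peak list that overlapped a region of each of the other 3 HSC lists by at least 1 bp and overlapped no region of either progenitor list. They were 4.60% of the 40073 regions of the wild-type HSC list. Chromatin accessibility had been measured by ATAC-seq, in which the transposase Tn5 cuts open DNA, in 18 mouse samples of 6 groups, and 1 peak list per group was analysed. The members were selected on presence or absence in all 6 lists, so their presence and their strength in those lists are a description and carry no test. With a single list per group no spread between replicates could be computed, and all intervals below are 95% Wilson intervals that cover counting error over regions only, although neighbouring regions are not independent.

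The 4 HSC groups were wild-type HSC at 8 weeks of age (2 samples), HSC at 8 weeks from mice carrying Kmt2c f/f and Vav-Cre and labelled Kmt2c -/- (2 samples), wild-type HSC at 16 weeks after vehicle, PBS, given every 3 weeks 3 times (4 samples), and wild-type HSC at 16 weeks after 5-fluorouracil at 150 mg/kg on the same schedule (4 samples). The 2 progenitor groups, labelled HPC, were wild type (4 samples) and Kmt2c f/f; Vav-Cre, Kmt2c -/- (2 samples), both at 8 weeks. The series text places all populations in a conditional Kmt2c knockout strain. Vav-Cre is active throughout the blood system, so the deletion was not restricted to stem cells. Which part of Kmt2c was removed is not stated in the labels used here, and the genotype was not checked. The labels used here give no surface markers for the sorts and do not say whether samples came from separate animals. List lengths ran from 40073 regions, for wild-type HSC, to 80100, for the vehicle group, and read depth was unknown.

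HSC sit at the top of the blood system: most are quiescent, and they can renew themselves and give rise to all blood lineages. Accessible regions away from genes are often enhancers, which differ more between cell types than promoters do. Kmt2c, also called Mll3, encodes an enzyme that methylates lysine 4 of histone H3, mainly at enhancers, and 5-fluorouracil kills dividing cells and drives surviving HSC to divide. In such bulk samples a site open in fewer cells and a site less open in each cell cannot be told apart.

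Of the 1793 members on chromosomes with promoter windows of RefSeq transcripts, 79 overlapped such a window, 4.41% (3.55 to 5.46). The share was 22.8% of all wild-type HSC regions and 26.9% of those in all 6 lists. It was 1.36% of regions in both HPC lists and no HSC list. The sequences of 7 windows overlapped by members are printed here. The members there lay at or beside genes described below, except at Serpinb8, which is shown as a window with AP-1 matches and was chosen after its values were seen. Each window runs from 250 bases before to 50 bases after a start site, is given 5′ to 3′ on the strand of the gene, and comes from RefSeq on GRCm38.p6. Capitals mark matches on either strand to 8 short motifs: GATAA of GATA factors, TGTGGT of RUNX factors, CAGGAAGT of ETS factors, TGACTCA of AP-1, CAGCTG of E-box proteins, TGACAG of MEIS factors, TTACGTAA of PAR bZIP factors and CCACCAG of the CTCF core.
Pdk4, chr6:5496229-5496528, minus strand: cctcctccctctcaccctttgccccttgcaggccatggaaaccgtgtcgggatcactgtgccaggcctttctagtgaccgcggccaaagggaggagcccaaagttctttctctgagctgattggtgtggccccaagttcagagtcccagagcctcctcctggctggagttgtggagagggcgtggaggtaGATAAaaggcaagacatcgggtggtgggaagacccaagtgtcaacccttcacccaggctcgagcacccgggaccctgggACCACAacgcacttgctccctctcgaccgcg
Armh4, chr14:49783334-49783633, minus strand: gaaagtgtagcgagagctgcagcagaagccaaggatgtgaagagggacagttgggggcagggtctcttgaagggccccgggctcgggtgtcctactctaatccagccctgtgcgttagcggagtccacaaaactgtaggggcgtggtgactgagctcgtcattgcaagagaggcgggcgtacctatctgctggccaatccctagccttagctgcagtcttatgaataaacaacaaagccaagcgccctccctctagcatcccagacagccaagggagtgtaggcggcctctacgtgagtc
Lsamp, chr16:39984114-39984413, plus strand: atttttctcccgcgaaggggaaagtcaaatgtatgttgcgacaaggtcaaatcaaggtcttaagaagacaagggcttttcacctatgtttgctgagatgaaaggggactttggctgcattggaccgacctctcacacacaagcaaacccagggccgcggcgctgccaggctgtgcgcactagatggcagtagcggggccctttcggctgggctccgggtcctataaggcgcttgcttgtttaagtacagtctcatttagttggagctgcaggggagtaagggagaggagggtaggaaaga
Sult1a1, chr7:126676369-126676668, minus strand: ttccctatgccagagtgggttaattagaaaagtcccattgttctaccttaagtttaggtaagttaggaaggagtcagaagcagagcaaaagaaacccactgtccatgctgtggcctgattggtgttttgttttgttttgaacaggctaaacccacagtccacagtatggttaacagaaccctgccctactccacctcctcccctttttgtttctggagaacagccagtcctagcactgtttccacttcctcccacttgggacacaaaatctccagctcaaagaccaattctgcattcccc
Serpinb8, chr1:107589756-107590055, plus strand: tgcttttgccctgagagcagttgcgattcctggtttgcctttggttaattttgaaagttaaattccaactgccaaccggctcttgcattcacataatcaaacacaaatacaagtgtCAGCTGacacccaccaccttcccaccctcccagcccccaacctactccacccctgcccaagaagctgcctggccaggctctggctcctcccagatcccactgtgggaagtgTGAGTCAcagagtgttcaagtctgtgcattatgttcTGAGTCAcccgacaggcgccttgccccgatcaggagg
Hoxa5, chr6:52204538-52204837, minus strand: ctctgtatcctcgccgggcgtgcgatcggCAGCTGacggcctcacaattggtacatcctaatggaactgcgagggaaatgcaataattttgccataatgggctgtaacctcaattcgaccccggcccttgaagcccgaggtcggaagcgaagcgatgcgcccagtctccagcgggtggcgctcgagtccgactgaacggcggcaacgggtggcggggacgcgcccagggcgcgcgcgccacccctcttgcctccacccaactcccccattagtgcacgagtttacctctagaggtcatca
Gm39895, chr2:103893810-103894109, plus strand: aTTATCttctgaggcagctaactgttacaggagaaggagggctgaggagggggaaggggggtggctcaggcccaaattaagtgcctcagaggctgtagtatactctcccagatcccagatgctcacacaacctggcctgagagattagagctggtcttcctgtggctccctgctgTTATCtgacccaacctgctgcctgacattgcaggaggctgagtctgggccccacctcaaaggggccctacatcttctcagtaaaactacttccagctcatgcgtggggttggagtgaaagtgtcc

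Pdk4 encodes a kinase that shuts off pyruvate dehydrogenase and so limits the burning of glucose in mitochondria. Its whole 300-base window lay in a member, and the window held 1 GATAA match and 1 match to TGTGGT, read as ACCACA. Armh4, a membrane protein gene, and Lsamp, an adhesion molecule of the IgLON family, had windows with no match to any of the 8 motifs. Their wild-type HSC summits lay at -29 and -18 relative to the start site. The window of Sult1a1, a sulfotransferase gene, held 0 CpG dinucleotides and no match, with the summit at -66. Serpinb8, a protease inhibitor gene, had 2 AP-1 matches, read as TGAGTCA, and 1 CAGCTG. The Hoxa5 member covered the last 126 bases of its window, and its summit lay 120 bases past the start. The 1 CAGCTG match marked in that window lay outside the member. Gm39895 is an RNA gene beside Lmo2, a bridging protein of stem cell transcription complexes, and its window held 2 GATAA matches, read as TTATC.

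Over all 92 promoter windows of 82 symbols that a member overlapped, the median was 9 CpG dinucleotides per window. Windows overlapped by regions of all 6 lists had a median of 22, and all 32851 windows one of 7. GATAA was in 27.2% of the members' windows, in 14.3% of those of all-6 regions and in 25.4% of all windows. AP-1 letters were in 13.04%, 3.34% and 5.20%, and CAGGAAGT in 8.70%, 3.62% and 3.33%. The 55 windows overlapped by the progenitor counterpart, regions of both HPC lists and no HSC list, had a median of 4 CpG dinucleotides. They held GATAA in 10.9%, AP-1 letters in 7.27%, CAGGAAGT in 12.7%, CAGCTG in 27.3% and TGTGGT in 30.9%. TGACAG was in 30.9% of them and CCACCAG in 12.7%. All of these but GATAA and the AP-1 letters were more frequent there than in the members' windows. TGTGGT was in 15.2% of the members' windows and 16.8% of all, TGACAG in 13.04% and 19.2%, CAGCTG in 22.8% and 16.3%, CCACCAG in 7.61% and 6.41%, and TTACGTAA in 0% and 0.119%. Windows of 1 gene can overlap each other, and a match is a string of letters, not a site in use. The members away from promoters, which are most of them, were not searched for motifs here.

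The HSC label was compared with 10 HSC marker genes by asking which lists held a region within 1 kb of an end of the gene. The wild-type HSC list did so for 7, the knockout HSC list for 8, and the vehicle and 5-fluorouracil lists for 10 each. The wild-type HPC list did so for 7 and the knockout HPC list for 6, so an open gene end did not by itself separate the populations. Vwf, encoding von Willebrand factor, had an open end in all 4 HSC lists and in neither HPC list. The region on that end is itself a member, so the rule selected this pattern and it is no check of the label. The wild-type HPC list held 12 regions nearest to Vwf, and the wild-type HSC list 5. Tek, the angiopoietin receptor, had one only in the vehicle and 5-fluorouracil lists. Hoxb5, a homeobox factor of long-term HSC, had one in 3 HSC lists, but not in the wild-type HSC list, and in no HPC list. Slamf1 went the other way at 8 weeks, with an open end in both HPC lists and in neither 8-week HSC list. It also had one in the vehicle and 5-fluorouracil lists. Of 12 HPC markers, open ends were found for 5 in each 8-week HSC list, 9 in vehicle, 7 in 5-fluorouracil, 8 in wild-type HPC and 7 in knockout HPC. Elane and Gata1, which define granulocyte and erythroid progenitors, had none in any list. Members lay nearest to 5 of the 10 HSC markers, with 6 of their 55 wild-type HSC regions, 10.9% (5.10 to 21.8). They lay nearest to 0 of the 12 HPC markers, with 0 of 17 regions, 0% (0 to 18.4). Members were 4.30% of the regions near all protein-coding genes, which the second interval holds, and 6.45% of all such genes had one.

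Most members lay away from gene ends. A member was within 1 kb of an end of a protein-coding gene, called at a gene end below, in 175 cases, or 9.49% (8.24 to 10.9). The share was 32.1% (31.6 to 32.6) among the 30880 wild-type HSC regions in all 6 lists. The counterpart in progenitors, 3791 regions of both HPC lists found in no HSC list, had 4.83% (4.19 to 5.56). Members lay inside a gene in 59.5% of cases (57.2 to 61.7), against 67.6% of all-6 regions. No protein-coding gene lay within 100 kb of 213 members, 11.6% (10.2 to 13.1), against 4.45% of all-6 regions. The median distance to a gene end was 23.2 kb for members, 6.95 kb for all-6 regions and 21.1 kb for the progenitor counterpart. The share of members at a gene end was 19.3% with windows of 200 bp around the summits in place of whole regions, and 17.8% with all lists cut to 1 length.

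**Figure D1:**
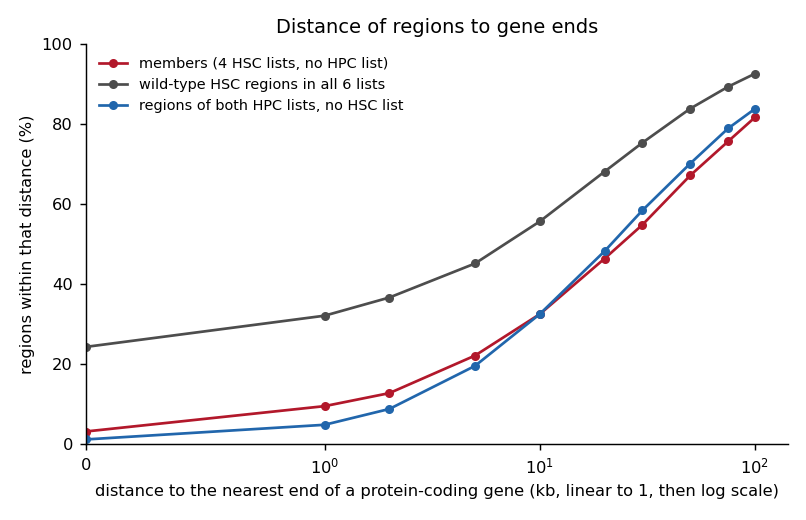
Share of regions (y axis, percent) within a given distance (x axis, kb) of the nearest end of a protein-coding gene, for members, for wild-type HSC regions in all 6 lists and for regions of both HPC lists and no HSC list. Within 10 kb lay 32.5% of members, 55.7% of all-6 regions and 32.5% of the progenitor counterpart.

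The members were mostly weak peaks in the wild-type HSC list, but not in the longer lists of the 16-week groups. Strength was ranked within each list by the authors' −log10 p, and the median percentile of the members was 25.7 in wild-type, 39.6 in knockout, 66.4 in vehicle and 59.3 in 5-fluorouracil HSC. All-6 regions had 60.3, 67.1, 80.5 and 78.1. Of the members, 889 members fell in the weakest 25% of the wild-type HSC list, 605 in the next 25%, 295 in the one after and 55 in the strongest 25%. They made up 8.87%, 6.04%, 2.94% and 0.549% of those bins. In each bin the members' share at a gene end was the lower, with intervals that did not overlap: it was 12.8% against 25.3% of all-6 regions in the weakest bin, and 5.45% (1.87 to 14.9) against 41.3% (40.3 to 42.3) in the strongest. Median fold enrichment over local background was 11.8 for wild type, 14.1 for knockout, 14.6 for vehicle and 12.9 for 5-fluorouracil. These medians were computed by separate peak callings and show no change between lists. All-6 regions had medians of 16.2, 18.1, 17.1 and 16.7 in the same lists. In all 4 HSC lists 294 members, 15.9%, stood above the median strength of the list, against 58.6% of all-6 regions. In the strongest 25% of every list stood 47 members, 2.55%.

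The 4 lists placed the members at nearly the same bases. The summit lay within 100 bp of the wild-type HSC summit for 95.2% of members in the knockout list, 92.0% in the vehicle list and 92.1% in the 5-fluorouracil list, with median shifts of 12, 11 and 11 bp. For all-6 regions these shares were 96.1%, 93.4% and 93.5%. Ranks by strength followed those of the wild-type HSC list less closely for members than for all-6 regions. Between the vehicle and 5-fluorouracil lists, Spearman's rho over the members was 0.87. That pair was not computed over all-6 regions. Across the 1844 members, Spearman's rho with wild-type HSC was 0.68 for knockout, 0.64 for vehicle and 0.54 for 5-fluorouracil, against 0.91, 0.86 and 0.84 over all-6 regions. Regions share a library, so these are descriptions. In wild-type HSC the quartiles of strength percentile ran from 11.9 to 43.6 for members, a narrower range than 37.6 to 80.5 for all-6 regions. In the 5-fluorouracil list the range was not narrower, with 44.0 to 72.6 against 64.5 to 89.4. The part of the range of strength in the lower rho values was not tested.

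**Figure D2:**
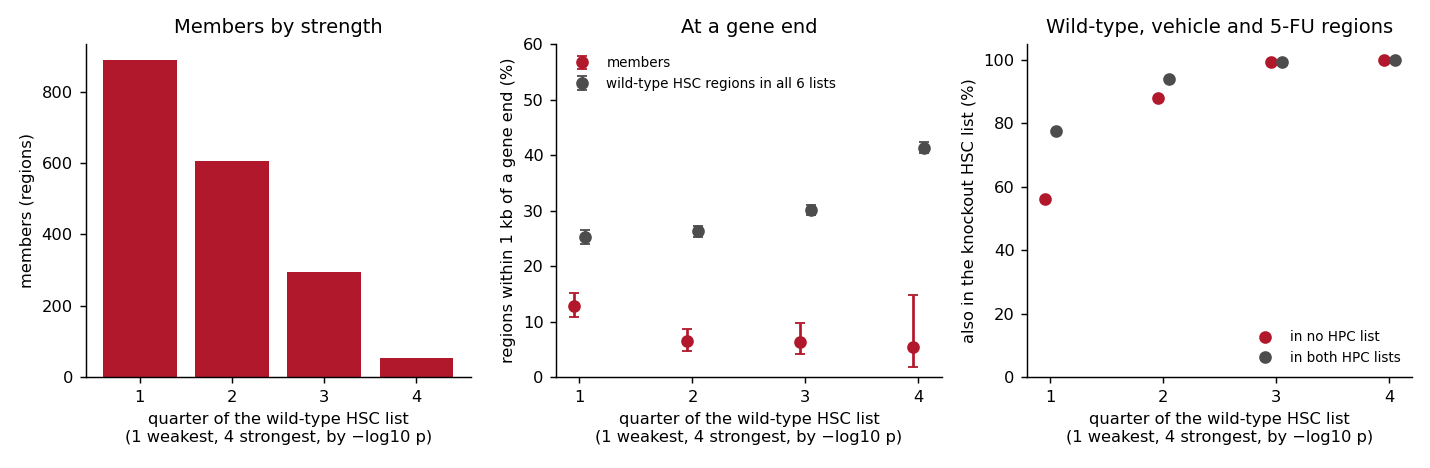
Left, number of members in each of 4 equal bins of the wild-type HSC list ordered by −log10 p. Centre, share of regions within 1 kb of a gene end for members and for regions in all 6 lists. Right, share of regions shared by the wild-type, vehicle and 5-fluorouracil HSC lists that were also in the knockout HSC list, for those in no HPC list and in both HPC lists, without intervals because the rule used these lists. Bars on the centre points are 95% Wilson intervals. The members number 889 in the weakest bin and 55 in the strongest.

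Most members, 86.7%, lay more than 1 kb from any region open in progenitors, and most also had one within 10 kb. The median distance to the nearest HPC region of either list was 6.86 kb. An HPC region lay within 100 bp of 31 members, within 1 kb of a further 215, within 5 kb of a further 524 and within 10 kb of a further 323. It lay 10 to 100 kb away for 638, and 113 members had none within 100 kb. These distances were not compared with those of other regions here. Just outside the rule were 2887 regions of all 4 HSC lists that overlapped exactly 1 HPC list, 2458 in the wild-type HPC list and 429 in the knockout HPC list. Their median strength percentile in wild-type HSC was 26.2, close to the 25.7 of the members, and that of regions in both HPC lists was 60.3. Of those 2887 regions only 1 was covered over less than 10% of its length by the HPC region.

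Presence in the knockout HSC list was part of the rule, so the next values describe what that list left out and test nothing about the loss of Kmt2c. Both classes set side by side were also chosen by the knockout HPC list. The wild-type, vehicle and 5-fluorouracil HSC lists shared 2622 regions that were in no HPC list, and 1844 of these, 70.3%, were also in the knockout HSC list and so became members. Of the 32647 regions that those 3 lists shared and that were in both HPC lists, 94.6% were in the knockout HSC list. The 2 shares were furthest apart among weak regions. In the weakest 25% of the wild-type list 56.2% and 77.6% were in the knockout list, in the next bin 88.1% and 94.0%, in the third 99.3% and 99.4%, and in the strongest 55 of 55 and 9873 of 9876 regions. Within the weakest bin the regions in no HPC list were also weaker, with a median percentile of 9.42 against 14.3. The part of that difference, and of the pooling of 2 samples in each 8-week HSC list, in the missing 778 regions was not tested.

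Genes nearest to a member, by gene body within 100 kb, numbered 1411, which was 6.45% of 21887 protein-coding genes and 9.75% of the 14476 genes with any wild-type HSC region. Most of them, 1238, had a single member, 133 had 2, 34 had 3, 5 had 4 and 1 had 5. Genes with a member were long, with a median of 64.3 kb against 24.9 kb for genes with any wild-type HSC region. A gene with more regions can more easily hold at least 1 member, and the part of this in the lengths was not tested. The nearest gene need not be the one a region regulates. Gene groups are described below by the share of their wild-type HSC regions that were members, beside 4.30% (4.10 to 4.51) over all protein-coding genes. The gene lists were written with earlier results of these data known. Their shares and intervals are therefore descriptions and no test of enrichment.

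Genes of the stem cell surface, adhesion and efflux had the highest share of the lists with more than 100 regions. Members were 17 of their 141 regions, 12.1% (7.67 to 18.5), and lay near 14 of 38 genes. The list also counts Sult1a1, a sulfotransferase gene, among these 14. With regions at a gene end left out the share was 13.9% (8.75 to 21.4), against 5.46% over all genes. The progenitor counterpart took 3.56% (1.81 to 6.86) of the wild-type HPC regions near these genes, against 5.48% over all genes. The share of members was 9.93% with no HPC region within 1 kb, where all genes had 3.67%. It fell to 5.94% when the vehicle list was the starting list, where all genes had 2.04%.

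Itga6, the integrin alpha 6 subunit by which HSC bind laminin, had 3 members among 9 regions. One, at 71852228 to 71852511 on chromosome 2 inside the gene, had fold enrichments of 10.9 in wild-type, 14.3 in knockout, 13.6 in vehicle and 17.0 in 5-fluorouracil HSC. Another inside the gene had 5.55, 5.25, 6.65 and 7.08 and lay 0.856 kb from an HPC region. The one 34.5 kb outside the gene had 9.94, 10.9, 15.4 and 13.4. Mmrn1, multimerin 1 of platelets and endothelium, had 2 members among 4 regions. One lay inside the gene 3.68 kb from its end, with 9.65, 9.54, 11.4 and 10.9 in the same order of lists. Slamf1 encodes CD150, the surface protein most used to sort mouse HSC, and 1 of its 4 regions was a member. It spanned 171773148 to 171773808 on chromosome 1 inside the gene, 6.02 kb from an end, with 14.8, 20.6, 18.9 and 16.1. Its nearest HPC region lay 5.86 kb away.

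Tek and Sult1a1 had a single wild-type HSC region each, and in both cases it was a member. The Tek region, at 94860788 to 94861187 on chromosome 4 inside the gene, had fold enrichments of 11.3, 16.8, 17.8 and 11.7 in wild-type, knockout, vehicle and 5-fluorouracil HSC. The nearest HPC region lay 118 kb from it. The Sult1a1 region, which spans the start site printed above, had 15.8, 18.8, 16.0 and 15.3. The wild-type HPC list held no region nearest to either gene.

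Vwf, whose product carries clotting factor VIII and tethers platelets, had a member on its gene end at 125552663 to 125553062 on chromosome 6. Its fold enrichments were 10.1 in wild-type, 13.3 in knockout, 12.1 in vehicle and 9.64 in 5-fluorouracil HSC. Itgb3, the integrin beta 3 subunit, had 15.1, 25, 22.8 and 21.7 at a member inside the gene. Trpc6, a calcium channel gene, had a member 55.6 kb away with 18.5, 19.97, 20.1 and 20.4. An HPC region lay 0.794 kb from that member. The member inside Kit, the stem cell factor receptor, was weak, with 5.86, 7.22, 5.65 and 5.41 and a place in the lowest 0.749% of the wild-type HSC list. Abcb1a, a drug efflux pump, Alcam, an adhesion molecule, Neo1, a netrin receptor, Jam3, a junctional adhesion molecule, and Cd82, a tetraspanin, had 1 member each. Their fold enrichments ran from 6.39 to 18.8 over the 4 lists. The Cd82 member lay 0.724 kb from an HPC region.

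Transcription factor genes of stem cells had 17 members among 278 regions, 6.12% (3.85 to 9.57), near 13 of 40 genes. That interval holds the 4.30% of all genes, as it did the share of all genes under 9 of 13 other settings. Under the other 4 it lay above: it was 6.38 to 12.3 against 5.03% with windows around summits, 4.96 to 12.54 against 4.86% without the weakest 25% of each list, 8.58 to 16.2 against 8.04% with lists of equal length, and 13.6 to 22.5 against 10.3% without the wild-type HPC list. Mecom, encoding the self-renewal factor EVI1, had 2 of 16 regions. The stronger one, 92.7 kb inside the gene, had fold enrichments of 13.2 in wild-type, 13.9 in knockout, 12.4 in vehicle and 14.3 in 5-fluorouracil HSC. Meis1, a cofactor of HOX proteins, had 1 of 11, with 5.32, 10.02, 10.2 and 11.2, the lowest of the 4 values being that of wild-type HSC. This member stood in the lowest 0.327% of the wild-type HSC list, and at percentiles 23.4, 63.5 and 64.5 in the other lists.

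The HOXA cluster held 2 members. One lay over the start of Hoxa5 at 52204202 to 52204663 on chromosome 6, with fold enrichments of 5.94, 9.20, 8.63 and 9.62 in wild-type, knockout, vehicle and 5-fluorouracil HSC. The other, inside Hoxa9 at 52226029 to 52226359, had 5.98, 5.00, 3.36 and 3.99. It lay 3.72 kb from the hairpin of Mir196b, a microRNA gene of the cluster, whose mature product is shown from RefSeq with its seed, bases 2 to 8, in capitals.
mmu-miR-196b-5p: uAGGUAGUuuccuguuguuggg

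The member nearest to Lmo2 was among the stronger ones, with fold enrichments of 16.2, 17.2, 16.9 and 16.2 in the same order. It lay 63.7 kb outside the gene, at 103893720 to 103894175 on chromosome 2, and covered the whole promoter window of Gm39895 printed above. Nfia, a nuclear factor I gene, had 2 members among 22 regions, the stronger with 17.9, 20.8, 16.1 and 16.5. An HPC region lay 0.413 kb from that one. Prdm16, Rarb, Zfp521, Etv6, Erg and Mycn had 1 member each, with fold enrichments between 3.13 and 18.5. No member was nearest to Runx1 within 100 kb, which had 16 wild-type HSC regions, nor to Hlf, Gata2, Tal1, Fli1 or Lyl1.

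**Figure D3:**
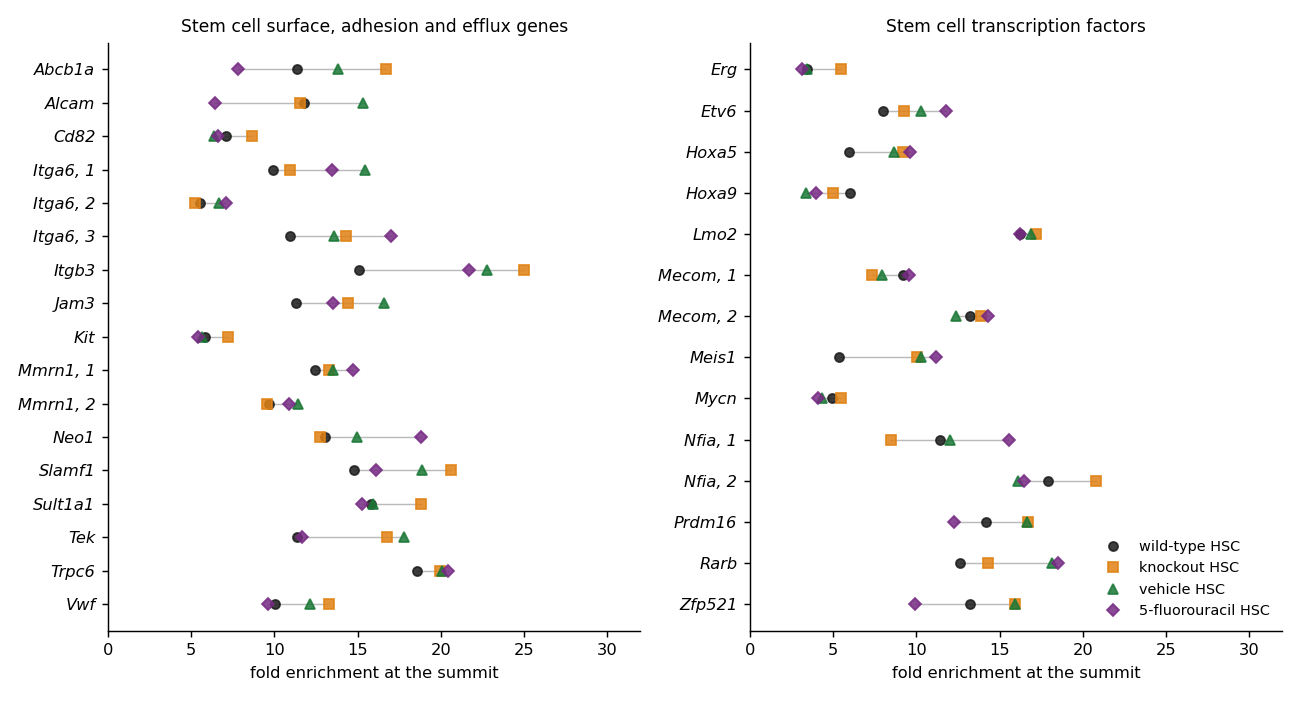
Fold enrichment at the summit (x axis) in each of the 4 HSC lists for the 17 members near stem cell surface, adhesion and efflux genes (left) and for 14 of the 17 near stem cell transcription factor genes (right), 1 row per member, with members of the same gene numbered by position. Itgb3 has 15.1 in wild-type HSC against 21.7 to 25 in the other lists, and Lmo2 shows nearly equal values in all lists.

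Lineage genes held between 1 and 7 members a list. Myeloid progenitor genes had 1 of 67 regions, 1.49% (0.264 to 7.98), at the start of Mgst1, a microsomal glutathione transferase, and an HPC region lay 0.230 kb from it. In the progenitor counterpart the same list had 9.01% of its wild-type HPC regions. Erythroid genes had 4 of 52. Of these, 3 lay inside Zfpm1, which encodes FOG1, the cofactor of GATA1, spread over 25.4 kb that held 6 wild-type HSC regions. The strongest of them, at 122309094 to 122309858 on chromosome 8, had fold enrichments of 14.1 in wild-type, 13.9 in knockout, 14.0 in vehicle and 15.9 in 5-fluorouracil HSC. Megakaryocyte and platelet genes had 2 of 65, near Mef2c and Tubb1.

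Lymphoid progenitor genes had 7 of 117 regions, 5.98% (2.93 to 11.8), of which Foxp1, a forkhead factor of early B cell development, held 4 of its 25. Their fold enrichments ran from 13.1 to 16.8 in wild-type, 17.6 to 24.1 in knockout, 19.5 to 22.7 in vehicle and 17.1 to 21.1 in 5-fluorouracil HSC. Ebf1, Rora and Notch3 had 1 each. The Ebf1 member, inside this B lineage factor gene, had 18.2, 20.8, 21.8 and 20.6.

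For signalling and cell state genes, every interval held the 4.30% of all genes. TGF-beta, BMP, WNT and Notch genes had 9 of 204 regions, 4.41% (2.34 to 8.17), with 3 members at Tgfbr3, the type III TGF-beta receptor, and 2 at Hes1, a Notch target. Quiescence and immediate-early genes had 4 of 162, 2.47% (0.964 to 6.18), at Ccnd1, Foxo1, Nr4a1 and Nr4a3. Interleukin-1, TNF and NF-kB genes had 6 of 101, cell cycle genes 3 of 62, chromatin regulators 1 of 62 at Ezh1, and interferon and antigen presentation genes 0 of 48 (0 to 7.41). Markers of other cells that a sort could hold were near members as well: B cell markers 2 of 10 regions, both at Bank1, T and NK markers 2 of 24, both at Klrb1c, mast cell markers 1 of 7 at Cma1, stroma and endothelium 2 of 42 and macrophages 0 of 16. Housekeeping genes had 2 of 37. Beside the stem cell surface list, the mature B cell list, with 20% (5.67 to 51.0), was the only other of the 18 lists whose interval lay above 4.30%, and its gene ends were open in 3 or 4 of 9 markers in every HSC list and 4 or 5 in the HPC lists. The part of other cell types in the members was not tested.

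**Figure D4:**
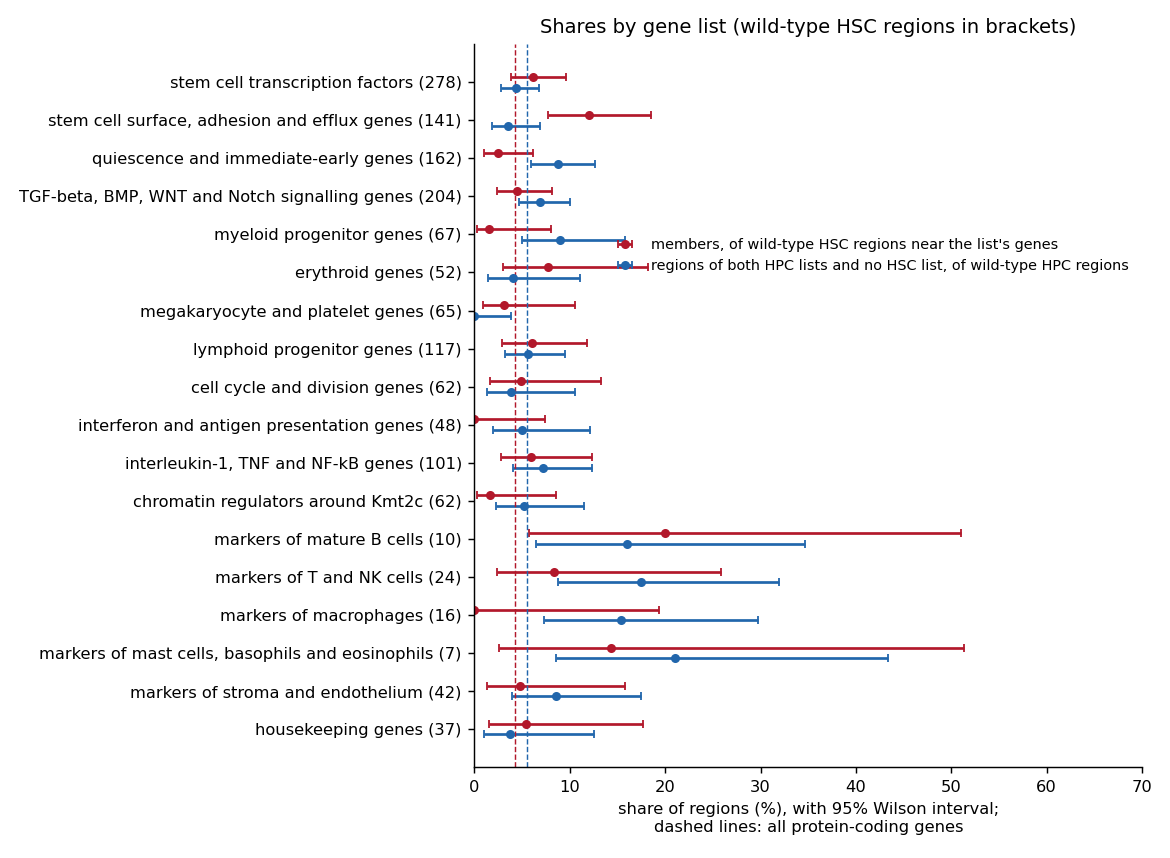
Share of regions (x axis, percent, with 95% Wilson intervals) for 18 gene lists. Red points are members as a share of wild-type HSC regions near the genes of the list, and blue points are regions of both HPC lists and no HSC list as a share of wild-type HPC regions. Dashed lines mark all protein-coding genes, at 4.30% and 5.48%. The red point of the stem cell surface list stands at 12.1% and its blue point at 3.56%.

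By number of members, Sgms1, a sphingomyelin synthase gene, led with 5 of 21 regions. Their fold enrichments ran from 9.24 to 18.7 in wild-type HSC. Next came Lsamp with 4 of 7, Rftn1, a lipid raft protein gene, with 4 of 13, Itsn1, an endocytic scaffold gene, with 4 of 15, and Slc8a1, a sodium-calcium exchanger gene, with 4 of 18. Tmem132e, Tmem212 and Gm52241 had 3 of 4 each. A pair of Tmem132e members lay in a single vehicle region with a fold enrichment of 17.2, and the Gm52241 members included one with 2.12 in wild-type HSC, 0.094 kb from an HPC region.

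Among genes with at least 5 wild-type HSC regions, the share of members was largest at Ctnna3, Il1b, Opcml and Lsamp. Members were 3 of 5 at Opcml, like Lsamp an IgLON gene, 3 of 5 at Ctnna3, an alpha-catenin gene, and 3 of 6 at Ncam2, a neural cell adhesion molecule gene. These genes span 1135 kb, 1574 kb and 424 kb, and Lsamp 2197 kb. Adam12, a metalloprotease gene, had 3 of 6, and Ksr2, a scaffold of RAF kinases, and Soga1 had 3 of 7. Il1b, the cytokine interleukin-1 beta, had 3 of 5, all within 16.5 kb and 21.1 to 37.3 kb from the gene.

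The Lsamp members lay far from any progenitor region. The one over the start site, at 39984169 to 39984705 on chromosome 16, had fold enrichments of 20.6 in wild-type, 15.8 in knockout, 21.1 in vehicle and 16.9 in 5-fluorouracil HSC. Its nearest HPC region was 928 kb away, and those of the other 3 Lsamp members were between 250.2 and 1234 kb away. The strongest Opcml member, at 28289497 to 28290121 on chromosome 9, had 30.5, 37.0, 30.1 and 28.3, and lay 27.7 kb from an HPC region.

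The strongest members with no HPC region within 1 kb were ranked by their lowest strength percentile over the 4 HSC lists. First was a region inside Exoc6b, an exocyst subunit gene, at 84883007 to 84883594 on chromosome 6. Its fold enrichments were 32.3 in wild-type, 31.8 in knockout, 27.4 in vehicle and 26.9 in 5-fluorouracil HSC, its lowest percentile was 96.8, and the nearest HPC region was 40.1 kb away. Gypc, a red cell membrane glycophorin gene, had 16.4, 13.8, 13.1 and 13.3 at a region inside it, and Rnf125, a ubiquitin ligase gene, 28.1, 32.1, 26.8 and 27.2 at a region 5.53 kb away. Rpa1, a subunit of the single-strand DNA binding complex of replication, and D7Ertd443e followed, with lowest percentiles of 87.5 and 85.9.

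A further 3 of these 12 strongest members had no protein-coding gene within 100 kb. One lay on chromosome 16 at 93197339 to 93198007, and the nearest gene was Runx1, a factor needed for blood stem cells to emerge, 371 kb away. Its fold enrichments were 25.4 in wild-type, 26.3 in knockout, 23.7 in vehicle and 24.3 in 5-fluorouracil HSC, and the nearest HPC region lay 9.09 kb away. A second member on the same side of Runx1, at 93129505 to 93129890 and 303 kb from it, had 21.5, 21.5, 19.5 and 22.2. The others were a region on chromosome 5, 1054 kb from Slit2, with 30.8, 31.6, 29.0 and 29.1, and a region on chromosome 18, 106 kb from Svil, with 26.0, 28.2, 23.7 and 24.5.

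The strongest members at a gene end, ranked in the same way, lay at Pfkfb2 and Pdk4. Pfkfb2, which sets the level of the glycolytic activator fructose 2,6-bisphosphate, had a member 0.756 kb from a gene end and 11.97 kb from the nearest annotated start, with fold enrichments of 26.8 in wild-type, 34.0 in knockout, 28.8 in vehicle and 29.9 in 5-fluorouracil HSC. The Pdk4 member, 881 bp wide at 5496038 to 5496918 on chromosome 6, had 21.5, 21.7, 20.4 and 19.97, and its wild-type summit lay at -450 from the start. The nearest HPC region lay 12.7 kb away. Armh4 had 21.6, 31.8, 24.0 and 20.5 over its start, and the nearest HPC region lay 258 kb away.

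Further members of that ranking were at Zcchc14, a zinc finger gene, Ubfd1, Akap6, an anchor of protein kinase A, and inside Clec12b, a C-type lectin gene, 0.428 kb from the end of Clec1a. Clec1a is in the stem cell surface list, but this member is not among the 17 of that list, since Clec12b holds it. It had 17.3, 22.9, 18.9 and 20.8. Zcchc14 had 17.2, 21.1, 14.3 and 14.1 on its gene end.

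Members mostly stood alone. Joined where neighbours lay within about 12 kb, the distance commonly used to stitch enhancers, the 1844 regions formed 1793 groups, of which 1746 held 1 member, 43 held 2 and 4 held 3. Only 5.31% of members were in a group of more than 1, against 50.4% of all-6 regions, which are far more numerous and so lie closer together. The 4 groups of 3 lay in Zfpm1, near Il1b, inside Tet1, which encodes an oxidase of methylated cytosine, and on chromosome 2 between 71652172 and 71670842, with no gene within 100 kb. A pair lay inside Tgm2, a transglutaminase gene, within 1.81 kb. In Il1b, Tet1 and Tgm2 every wild-type HSC region within the span was a member, 3, 3 and 2 in number. The Tet1 members were weak, with fold enrichments between 7.03 and 11.3 over the 4 lists.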

How the data were processed

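ATAC-seq peak lists, 1 per group, were analysed for 18 samples in 6 groups. The submitters' processing notes name Bowtie2, an aligner, MACS2, a peak caller, and the build mm10 (GRCm38). Tool versions, and how samples were pooled and rows filtered, were not given in the sources used here. Each deposited row holds an interval, a score (not used), the fold enrichment, a ratio of summit signal over local background, the −log10 p and a summit offset, another deposited value in bp. Rows that overlapped were merged into regions with Python 3.11.15 and pandas 2.3.3, and each region took the highest fold enrichment and the highest −log10 p of its rows, and the summit of the row with the latter. Read depth is unknown, and RNA is the molecule that the labels name.

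Genes were 21887 protein-coding genes of a RefSeq table of GRCm38.p6 without strand or exons, so exons and introns were not analysed here, and both ends stood for the start. A region was given the gene whose body lay nearest within 100 kb. Promoter windows and microRNAs came from RefSeq tables of the same build, which give no window on 1 chromosome, left out of that comparison. The overlap counting was tested on simulated lists. Strength percentiles order a list by −log10 p.

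Named genes followed a rule: the 12 with most members, the 8 with the largest share among those with at least 5 regions, those at the 12 strongest members and the 8 strongest at a gene end with no HPC region within 1 kb, up to 4 per gene list (18 lists, 432 symbols, 2 not in the table), and those of the 6 largest groups of neighbours; other genes named from the lists, and Serpinb8 and Gm39895, were chosen after their values were seen. Some genes that the rule names are not reported here. The members, the lists and the rule were chosen with earlier results of these data known. The planned search for motifs around summits needs a genome and was not run.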

Additional observations from a re-analysis of the deposited data

How the results depend on the processing

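The count of 1844 regions stayed within 1.5 times under 8 of 11 other settings. It was 2912 with windows of 200 bp around summits, 3368 with every list cut to its strongest 40073 regions and 4302 without the wild-type HPC list; the genes with a member then numbered 2506 and 3071 in the last 2 of these. The share at a gene end, 9.49%, was 19.3%, 17.8% and 14.8% in those 3 settings, 7.25% with no HPC region within 1 kb, 7.52% without the weakest 25% of each list, 6.18% with 500 bp in place of 1 kb and, added after seeing the data, 4.41% by RefSeq promoter windows. The stem cell surface list moved to 5.94% from the vehicle list and 19.9% without the wild-type HPC list, and stayed between 1.93 and 3.12 times the share of all genes in 13 of 13 settings. Stem cell factors moved to 11.9% with equal lists, 2.78% from the vehicle list and 17.6% without the wild-type HPC list, between 1.11 and 1.77 times all genes, and their interval lay above the share of all genes in 4 of 13 settings. Myeloid genes fell to 0 with no HPC region within 1 kb and, added after seeing the data, with gene ends left out. Groups of more than 1 neighbour were 47, and 21 at 5 kb. Of 72 named genes, 41 kept a count within 1.5 times without the weakest 25% of each list and 21 had no member left. The causes of these moves were not tested. All settings reuse the same peak lists and gene lists, so they are not independent of each other.

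No paired analysis was possible because each group has 1 list. No fit without a replicate was made for the same reason.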

Other observations

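Hairpins of 10 of 1005 microRNAs lay within 5 kb of a member. Within 5 kb of an all-6 region lay 302 hairpins, for 30880 such regions against 1844 members. Hairpins per region were thus not more frequent for members. Of the 10 hairpins near a member, that of Mir6416 lay inside a member at 64249808 to 64250114 on chromosome 7. This member had fold enrichments of 11.8 in wild-type, 10.5 in knockout, 11.6 in vehicle and 11.2 in 5-fluorouracil HSC. Mir335, in the imprinted Mest locus, lay 3.67 kb from a member with 9.70, 9.35, 13.5 and 15.6. Mir6955 lay 2.26 kb from a member with 5.25 and 5.30 in the 8-week lists and 16.4 and 16.6 in the 16-week lists. Those values come from separate peak callings and are not a measured change.

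The 213 members with no protein-coding gene within 100 kb had a median distance of 213 kb to the nearest gene. Their median fold enrichment in wild-type HSC was 14.3, and 43 of them stood above the median strength of all 4 HSC lists. Members were 213 of all 2123 wild-type HSC regions with no protein-coding gene within 100 kb. Cited2, a transcriptional coregulator of HSC maintenance, was the nearest gene to 4 of these members, of 11 such wild-type HSC regions. Those 4 lay 160, 1122, 1249 and 1284 kb from Cited2, so the link to that gene is by position only. Cdkn3, a phosphatase of cyclin-dependent kinases, was nearest to 3 of 3. By chromosome the members were between 3.37% of wild-type HSC regions on chromosome 11 and 5.92% on chromosome 16, and 0 of 4 on chromosome Y.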
